A study of Mus musculus with 2 samples.

Results

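In embryonic mouse lung, 10 genes of the Wnt pathway were followed. They were the extracellular and membrane antagonists Sfrp1, Sfrp2, Wif1, Dkk2 and Apcdd1, and Dkk3, a divergent relative of Dkk2. With them were the feedback and response genes Axin2, Nkd1 and Lef1, and the R-spondin receptor gene Lgr4. The 10 genes were chosen by name, with earlier results of these data known, as the probe sets annotated with exactly 1 of these gene symbols. All 10 were found among 19938 genes on the array, each with 1 probe set, so no gene had a further probe set to set beside its value. The knockout group was lung labelled as Etv4;5 knockout (DKO in one label and CKO in another) at E13.5, and the control group was wild type lung at E13.5. Etv4 and Etv5 are ETS transcription factors of the growing lung epithelium that respond to fibroblast growth factor signalling. In each group equal RNA from 3 samples was pooled and read on 1 Affymetrix array, which gave 2 arrays in all. The labels name no Cre line, deleted exon, strain or sex.

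Wnt ligands bind Frizzled receptors and the co-receptors Lrp5 and Lrp6, and the canonical branch then spares beta-catenin from a destruction complex built on Axin. Beta-catenin enters the nucleus and acts with TCF/LEF factors on target genes. Several of these targets, Axin2 and Nkd1 among them, encode inhibitors of the pathway, so their RNA is widely read as a sign of its activity. In the embryonic lung the mesenchyme makes Wnt2 and Wnt2b and the epithelium makes Wnt7b, and beta-catenin signalling takes part in lung specification, distal epithelial identity and growth of the mesenchyme.

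None of the 10 Wnt genes differed by 1.5-fold between the pools. The median size of their differences was 0.10 log2 units, beside 0.03 for all genes. Sfrp1 showed the largest difference of the 10, at 83.2% of its wild type level in the knockout pool, and it was the 1 gene at or past 1.2-fold. Its difference of -0.26 as deposited was -0.25 with equal array medians and -0.24 under quantile or loess scaling, just inside that limit. Lgr4, Dkk3 and Axin2 were at 88.0%, 89.9% and 90.8% of their wild type levels, Sfrp2 and Wif1 were slightly higher, and Nkd1, Apcdd1, Dkk2 and Lef1 were nearly or exactly equal. With 1 array per group there was no replicate spread and no test, so every difference here compares 2 pools. Values were read as log2 values, differences are knockout minus wild type, and 1.2-fold is a difference of 0.26. As a rough scale for the readings, 481 genes with 2 measured probe sets gave differences that disagreed between the probe sets by a median of 0.04 and a 90th percentile of 0.17. Of the 10 genes, Sfrp1 and Lgr4 had differences larger than this 90th percentile. That gap is between 2 differences, from 2 probe sets on the same arrays, so it is not the error of 1 difference. It also says nothing of the spread between embryos.

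The label check and the makeup of the pools came first. Etv4 stood at 6.96 in the knockout pool and 7.59 in the wild type pool, both under the array medians. The 2 probe sets of Etv5 stood at 11.17 and 11.28 in the knockout pool and at 11.41 and 11.51 in the wild type pool. Whether these probe sets lie in deleted parts is not known, so their values do not check the label. Xist, the RNA that coats the inactive X chromosome of female cells, stood at 5.74 in the knockout pool and 12.34 in the wild type pool. Of the Y-linked genes, Uty was higher in the knockout pool by 0.64, and Eif2s3y and Kdm5d by 0.53 each. In the knockout pool Uty, Eif2s3y and Kdm5d stood at 9.64, 10.44 and 9.58. In the wild type pool they stood at 8.99, 9.90 and 9.05, also above the array median. The wild type pool thus gave both Xist and Y-linked signal, and the knockout pool gave Y-linked signal with Xist under the median. The sex makeup of the pools and the genotype therefore cannot be told apart in any value given here.

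Secreted Frizzled-related proteins carry a cysteine-rich domain like that of the Frizzled receptors and bind Wnt ligands outside the cell. Sfrp1 stood at 10.17 in the knockout pool and 10.44 in the wild type pool, a difference of -0.26 (83.2% of wild type). The wild type pool was the higher, and 259 of all 19938 genes (1.30%) were lower by as much or more. Sfrp2, its close relative, stood at 11.18 in the knockout pool and 11.09 in the wild type pool, a difference of 0.10 (1.07-fold). The pair thus leaned in opposite directions, with a gap of 0.36 between their differences. That gap was not tested. The difference of Sfrp2 alone was smaller than the 90th percentile of the disagreement between probe sets, which is not the error of 1 difference.

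Wif1 encodes a secreted inhibitor that binds Wnt proteins through its own WIF domain. It stood at 7.24 in the knockout pool and 7.14 in the wild type pool, a difference of 0.10 (1.07-fold). A gene counted as measured when its brighter value reached the median of its array, which was 7.58 for knockout and 7.60 for wild type. Wif1 was under that level in both pools. The small excess in the knockout pool therefore rests on dim signal.

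Dickkopf proteins are secreted. Dkk2 binds the co-receptors Lrp5 and Lrp6, whereas Dkk3 is a divergent relative that is not established as a Wnt antagonist of the same kind. Dkk2 had exactly the same value, 7.59, in the knockout and wild type pools. It lay between the 2 array medians and was not counted as measured. Exactly equal values were common in the deposited table, at 33.5% of all genes, and no source used here gives the reason. Dkk3 stood at 8.26 in the knockout pool and 8.41 in the wild type pool, a difference of -0.15 (1.11-fold). The 2 Dickkopf genes differed in their differences by 0.15, within the 90th percentile of the disagreement between probe sets.

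Apcdd1 encodes a membrane glycoprotein that binds Wnt and Lrp proteins and blunts the response at the cell surface. It stood at 9.04 in the knockout pool and 9.05 in the wild type pool, a difference of -0.0065. No difference could be made out at this precision.

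**Figure D1:**
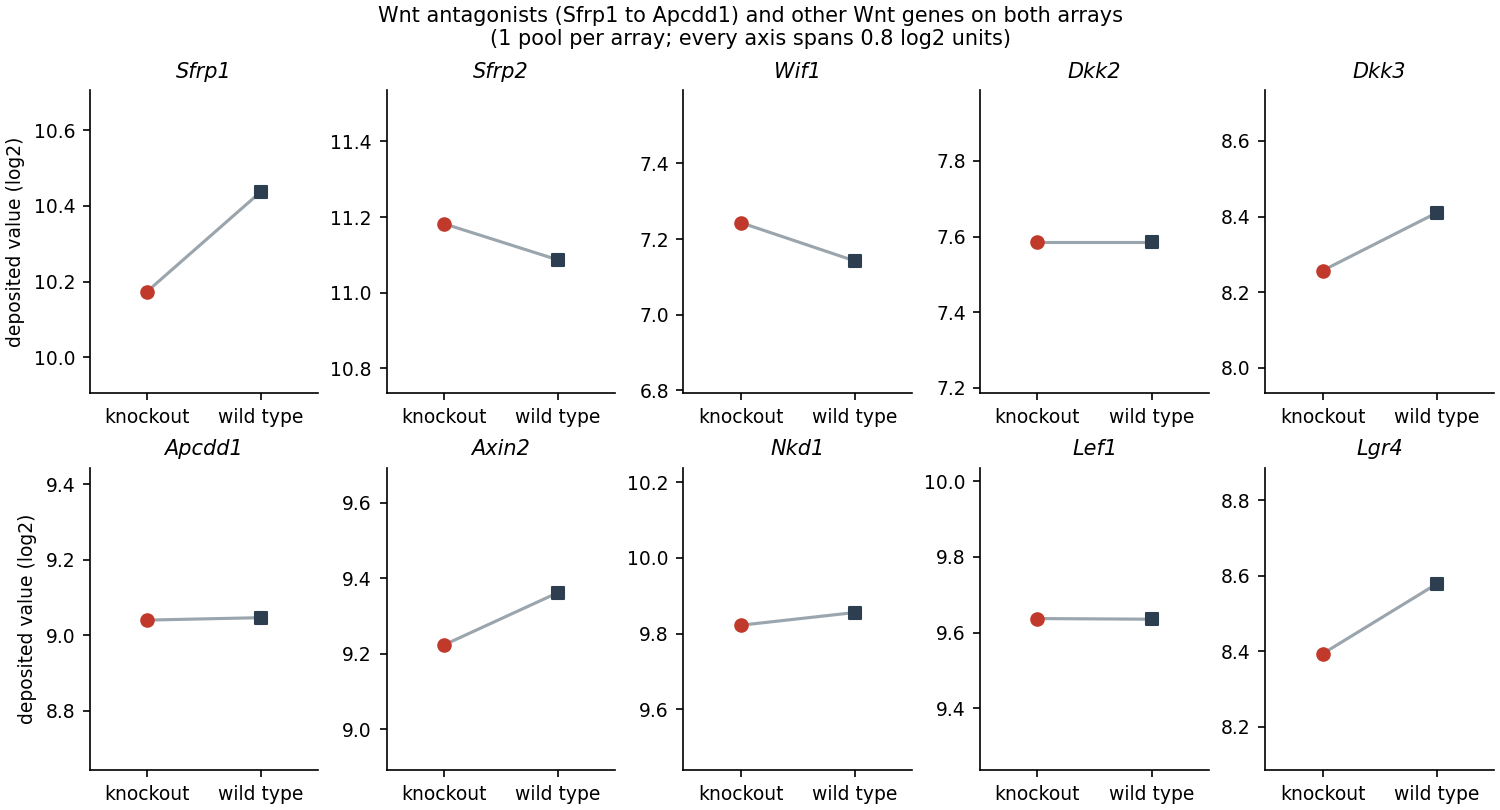
Deposited log2 value (vertical axis) of each of the 10 Wnt genes in the knockout pool (red circle, left) and the wild type pool (dark square, right), with 1 array per group and a line joining the 2 values. Every panel spans the same 0.8 log2 units, so slopes compare directly: Sfrp1 has the steepest, at 10.17 in knockout and 10.44 in wild type, and Dkk2 is flat at 7.59.

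The response genes were lower or level. Axin2, a scaffold of the destruction complex and a widely used readout of canonical signalling, stood at 9.22 in the knockout pool and 9.36 in the wild type pool. Its difference was -0.14 (90.8% of wild type), and 5.86% of all genes were lower by as much or more. Nkd1, which encodes a Dishevelled-binding feedback inhibitor, stood at 9.82 in the knockout pool and 9.86 in the wild type pool, a difference of -0.03. Lef1 encodes a DNA-binding partner of beta-catenin and is itself a Wnt target in many tissues. It stood at 9.64 in both pools, with a difference of 0.0017. Of the 3 response genes, Axin2 was thus the one farthest from equality, and its difference was still smaller than the 90th percentile of the disagreement between probe sets.

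Lgr4 encodes a receptor of R-spondins, which raises Wnt signalling by holding back the ubiquitin ligases Znrf3 and Rnf43 that remove Frizzled receptors. It stood at 8.39 in the knockout pool and 8.58 in the wild type pool, a difference of -0.18 (1.14-fold). This was the second largest difference of the 10, and 3.34% of all genes were lower by as much or more. Znrf3 differed by -0.0029 and Rnf43 by 0.18. Lgr5 and Lgr6, the other R-spondin receptors, were higher in the knockout pool by 0.23 and 0.11.

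Promoter windows of 250 bases before to 50 bases after the annotated start were taken from RefSeq, build GRCm38.p6. The table held 10 windows for 7 of the genes (Axin2, Lef1, Lgr4, Nkd1, Dkk2, Sfrp2 and Wif1), 4 of them for alternative starts of Lef1. Each was searched on both strands for CTTTGAA or CTTTGAT or CTTTGTA or CTTTGTT, to which TCF/LEF factors bind, and for AGGAAG, a core word of ETS factors of the Etv4 and Etv5 type. Axin2 and 1 window of Lef1 are shown because they held the matches, and Lgr4 because it had the largest difference among genes with a window. Capitals mark matched words, and a match on the other strand appears as its reverse complement.
Axin2, chr11:108920099-108920398, plus strand: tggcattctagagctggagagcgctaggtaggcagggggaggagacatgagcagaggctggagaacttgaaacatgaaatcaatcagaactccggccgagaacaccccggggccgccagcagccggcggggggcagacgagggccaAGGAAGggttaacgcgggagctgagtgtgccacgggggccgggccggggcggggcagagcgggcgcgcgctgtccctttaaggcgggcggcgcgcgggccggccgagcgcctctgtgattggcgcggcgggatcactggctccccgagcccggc
Lef1, chr3:131156044-131156343, plus strand: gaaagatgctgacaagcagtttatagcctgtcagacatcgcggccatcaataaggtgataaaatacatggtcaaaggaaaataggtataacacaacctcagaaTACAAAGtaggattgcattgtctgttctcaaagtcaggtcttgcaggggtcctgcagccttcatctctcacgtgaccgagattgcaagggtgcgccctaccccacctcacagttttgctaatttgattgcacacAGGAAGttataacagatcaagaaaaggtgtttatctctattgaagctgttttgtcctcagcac
Lgr4, chr2:109917397-109917696, plus strand: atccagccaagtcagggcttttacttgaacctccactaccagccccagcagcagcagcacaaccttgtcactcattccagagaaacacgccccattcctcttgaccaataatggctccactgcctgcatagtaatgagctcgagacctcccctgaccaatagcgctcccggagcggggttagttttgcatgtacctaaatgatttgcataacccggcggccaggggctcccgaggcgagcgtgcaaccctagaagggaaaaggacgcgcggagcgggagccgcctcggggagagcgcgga

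The Axin2 window held AGGAAG once, from -104 to -99 relative to the start, and no TCF/LEF word. The Lef1 window held AGGAAG once, from -13 to -8, and CTTTGTA once on the minus strand, from -147 to -141. No match of one kind overlapped a match of the other. The remaining 8 windows, the other Lef1 windows among them, held neither. The windows are not all separate, as 2 of the Lef1 windows overlap over most of their length. In all, 2 of 10 windows (20%) held AGGAAG and 1 of 10 (10%) a TCF/LEF word, against 35.4% and 16.9% of all 32851 windows in the table. Of the 2 genes with a match, Axin2 was lower by 0.14 on the log2 scale and Lef1 was level. A match in such a short window is not a binding site, and a window without one says nothing of binding elsewhere. Lef1 and Dkk2 lie near each other on chromosome 3 with 4 protein-coding genes between them, Hadh, Cyp2u1, Sgms2 and Papss1, whose differences ranged from -0.02 to 0.04. Axin2 shares chromosome 11 with the targeted gene Etv4, at a distance of 117 protein-coding genes.

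Differences of the 10 were set against those of all genes. At 1.2-fold, 1 of 10 was lower (10%) and 0 were higher, where 1.33% of all 19938 genes were lower and 2.21% higher by as much. Sfrp1 alone carried that count, close to the limit. At 1.1-fold, a difference of 0.14, Sfrp1, Lgr4, Dkk3 and Axin2 were lower and 0 of 10 were higher, where 5.96% of all genes were lower and 9.05% higher. Axin2 and Dkk3 sat close to that limit: the count of 4 was 2 with equal medians or quantile scaling and 3 under loess, as Axin2 was inside the limit under all 3 scalings and Dkk3 under the first 2. By sign alone 6 were lower, 3 higher and 1 equal, where 33.2% of all genes were lower and 33.4% higher. Of the 8 measured genes 6 were lower and 2 higher, where 47.0% of all measured genes were lower and 25.7% higher. The median difference was -0.02 for all 10 genes, beside 0.00 over all genes. For the 8 measured genes it was -0.086, beside 0.00 over all measured genes. The median size of the difference, signs aside, was 0.10 for the 10 genes and 0.03 for all genes. The 2 genes not counted as measured are included in the counts and medians of the 10. None of the 10 reached 1.5-fold in either direction.

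**Figure D2:**
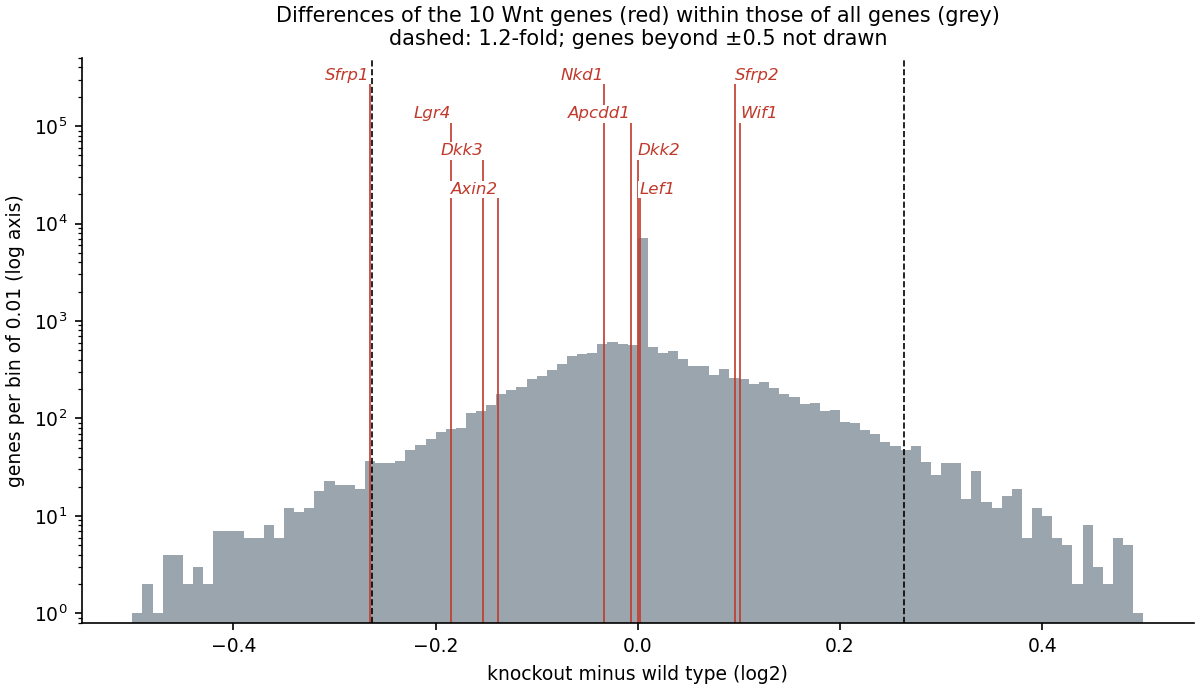
Number of genes (log axis, bins of 0.01) by their difference, knockout minus wild type in log2 units, for all 19938 genes in grey, with the 10 Wnt genes as labelled red lines and 1.2-fold as dashed lines. Sfrp1 lies just past the lower dashed line at -0.26, and the other 9 lie between the dashed lines, from -0.18 for Lgr4 to 0.10 for Wif1.

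The rest of the pathway was described from 7 lists holding 108 other genes, of which 105 were found and 74 were measured. Of these 74, 6 were lower by at least 1.2-fold (8.11%) and 1 was higher (1.35%), where 1.53% and 1.39% of all 11045 measured genes were. The lists were chosen with earlier results of these data known, so these shares are descriptive only. By sign 26 were lower, 30 higher and 18 equal, where 47.0% of all measured genes were lower and 25.7% higher. The median was 0.00. The lower genes were 3 ligands, 1 receptor and 2 membrane or secretory pathway inhibitors, and the higher one was the acyltransferase gene Porcn.

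Among 7 measured ligands, Wnt5a, Wnt2b and Wnt2 were lower, by -0.35, -0.32 and -0.31. Wnt2 stood at 10.04 in the knockout pool and 10.35 in the wild type pool. Wnt7b, the ligand of the epithelium, differed by 0.13. The differences of these 3 lower ligands were each larger in size than that of Sfrp1.

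Among 14 measured receptors and co-receptors, Fzd7 was the 1 past the limit, at 10.35 in the knockout pool and 10.65 in the wild type pool (-0.30). The Frizzled genes Fzd5, Fzd2 and Fzd6 differed by 0.18, -0.08 and 0.08. The co-receptor Lrp5 was equal and Lrp6 differed by -0.03.

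Of 8 other measured antagonists, Tpbg, a membrane inhibitor of the Wnt response, differed by -0.33. Shisa3, whose family retains Frizzled receptors inside the cell, differed by -0.28. Cer1, which encodes the secreted antagonist Cerberus, and Rnf43 differed by 0.20 and 0.18, under the limit. Sfrp1, Tpbg and Shisa3 were thus the antagonists lower by at least 1.2-fold. Below the level filter, Sfrp5, Draxin, Dkkl1 and Dkk1 were higher by 0.39, 0.32, 0.28 and 0.27 at dim levels.

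Of 6 measured genes for R-spondins, their receptors and Wnt secretion, Porcn, whose product attaches the lipid that Wnt proteins need, was higher by 0.47. It stood at 9.41 in the knockout pool and 8.94 in the wild type pool. Rspo2, the R-spondin gene with the largest difference among those measured, differed by -0.06.

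Genes of the pathway's core differed little. Of 15 measured genes of the destruction complex and Dishevelled, 0 were past 1.2-fold in either direction. Dvl3, Amer1, Dvl1 and Btrc had the largest differences, at -0.10, 0.06, 0.05 and -0.05, and Ctnnb1, which encodes beta-catenin, was equal on both arrays. Of 15 measured TCF factors and nuclear cofactors 0 were past the limit, with Tle4, Cby1, Bcl9 and Nlk at 0.11, -0.10, -0.08 and 0.06.

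Of 12 other measured response genes 0 were past the limit. By sign 7 were higher and 4 lower, and their median was 0.06. Lgr5, Ccn4, Rnf43 and Ccnd1 differed by 0.23, 0.21, 0.18 and 0.13. These 4 genes, which are Wnt targets in several tissues, lay on the other side of 0 from Axin2 at -0.14, although none was past 1.2-fold. The lowest measured gene of the list was Nkd2 at -0.08. Below the level filter, Sp5 differed by -0.25, more in size than any of the 4 and on the same side as Axin2. The other dim genes, Notum, Fgf20 and Ascl2, differed by -0.05, -0.03 and 0.05.

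**Figure D3:**
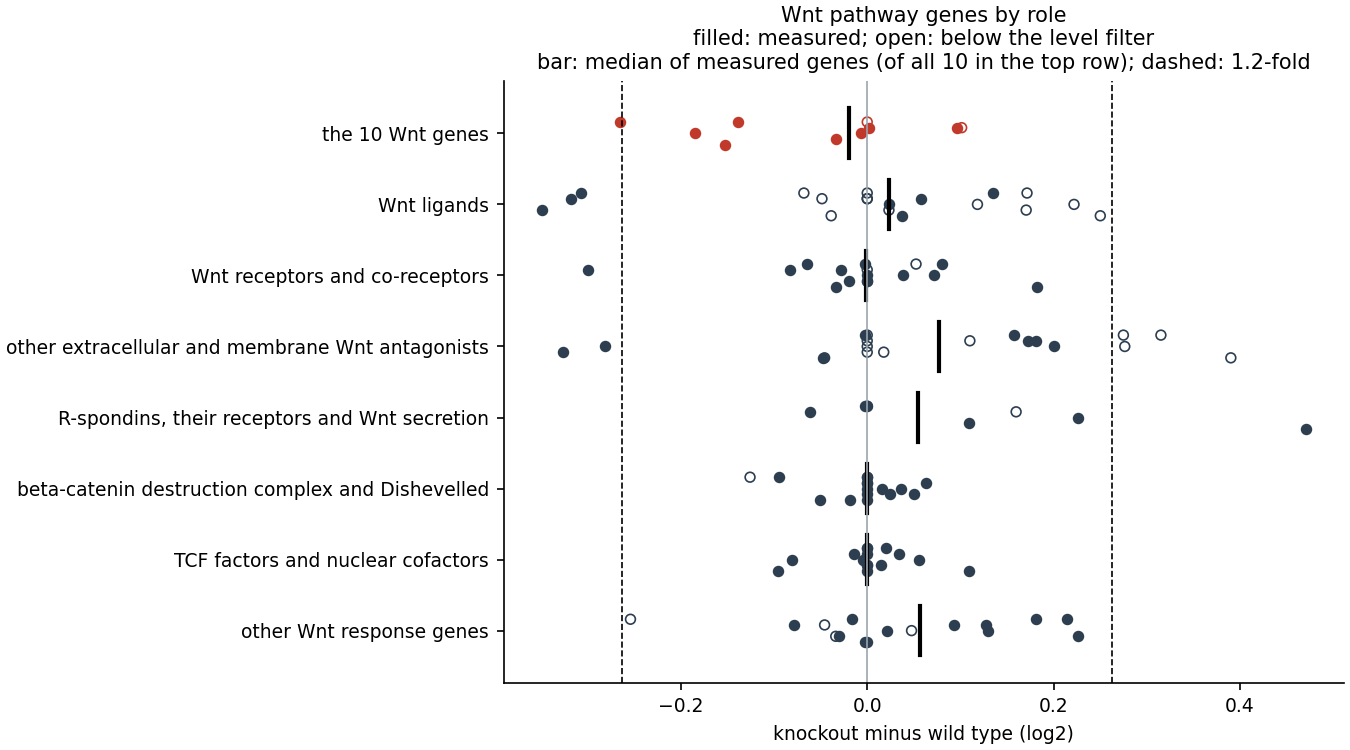
Difference, knockout minus wild type in log2 units, for each of the 10 Wnt genes (red) and for the genes of 7 other Wnt lists (dark), 1 row per role. Filled points are measured genes, open points lie below the level filter, black bars are medians of measured genes (of all 10 in the top row) and dashed lines mark 1.2-fold; past the lower line lie Sfrp1, 3 ligands, Fzd7, Tpbg and Shisa3.

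Markers of cell types also differed between the pools. In whole lung, fewer cells of a type and less RNA per cell cannot be told apart. Of 19 measured epithelial markers, 16 were higher in the knockout pool and 1 lower. Their median was 0.12, and their summed linear signal was 112% of that in the wild type pool. The largest were the keratin genes Krt18 and Krt19, at 0.47 and 0.45. Of 17 measured mesenchymal markers 16 were lower and 1 higher. They had a median of -0.09, and the summed signal of all 18 mesenchymal markers found was 92.3% of wild type. Foxf1, a mesenchymal transcription factor, differed by -0.40, and Fgf10, the bud-promoting ligand, by 0.40. Of 11 measured smooth muscle markers 10 were lower and 1 equal. They had a median of -0.22, with Synpo2 and Myocd at -0.49 and -0.39. The summed signal of all 12 smooth muscle markers found was 90.5% of wild type.

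The differences of Sfrp1, Lgr4, Dkk3 and Axin2, from -0.26 to -0.14, lay within the range of the measured smooth muscle markers, -0.49 to 0.00, and of the mesenchymal markers, -0.40 to 0.40. All 10 Wnt genes, from -0.26 to 0.10, lay within the mesenchymal range, but Fgf10 alone set its upper end. The next highest measured mesenchymal marker was Tbx4 at -0.02, and Sfrp2, Wif1, Lef1, Dkk2 and Apcdd1 lay above it. Sfrp1, Lgr4, Dkk3 and Axin2 also lay within the range of the measured cartilage markers, -0.41 to 0.18. The measured epithelial and mesothelial ranges, -0.04 to 0.47 and -0.09 to 0.20, held none of these 4 genes. Of the 4, the endothelial range, -0.15 to 0.11, held only Axin2. The ranges of the erythroid, leukocyte and neuronal lists held some of the 4 but not Sfrp1. The part of cell makeup in the values of the Wnt genes was not tested. The 4 measured erythroid markers had a median of -0.24 (Slc4a1 at -0.26, Hba-x at -0.25) and 9 leukocyte markers a median of -0.10 (Mrc1 at -0.17, Csf1r at -0.15). Medians were -0.02 for 13 endothelial markers, 0.05 for 7 mesothelial markers, 0.00 for 8 cartilage markers and -0.03 for 2 markers of neurons and Schwann cell precursors. In those lists Sox17 and Sox18 differed by -0.15 and 0.11, Bnc1 and Gpm6a by 0.20 and 0.12, Cnmd and Col2a1 by -0.41 and -0.19, and Stmn2 and Ret by -0.20 and 0.14.

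**Figure D4:**
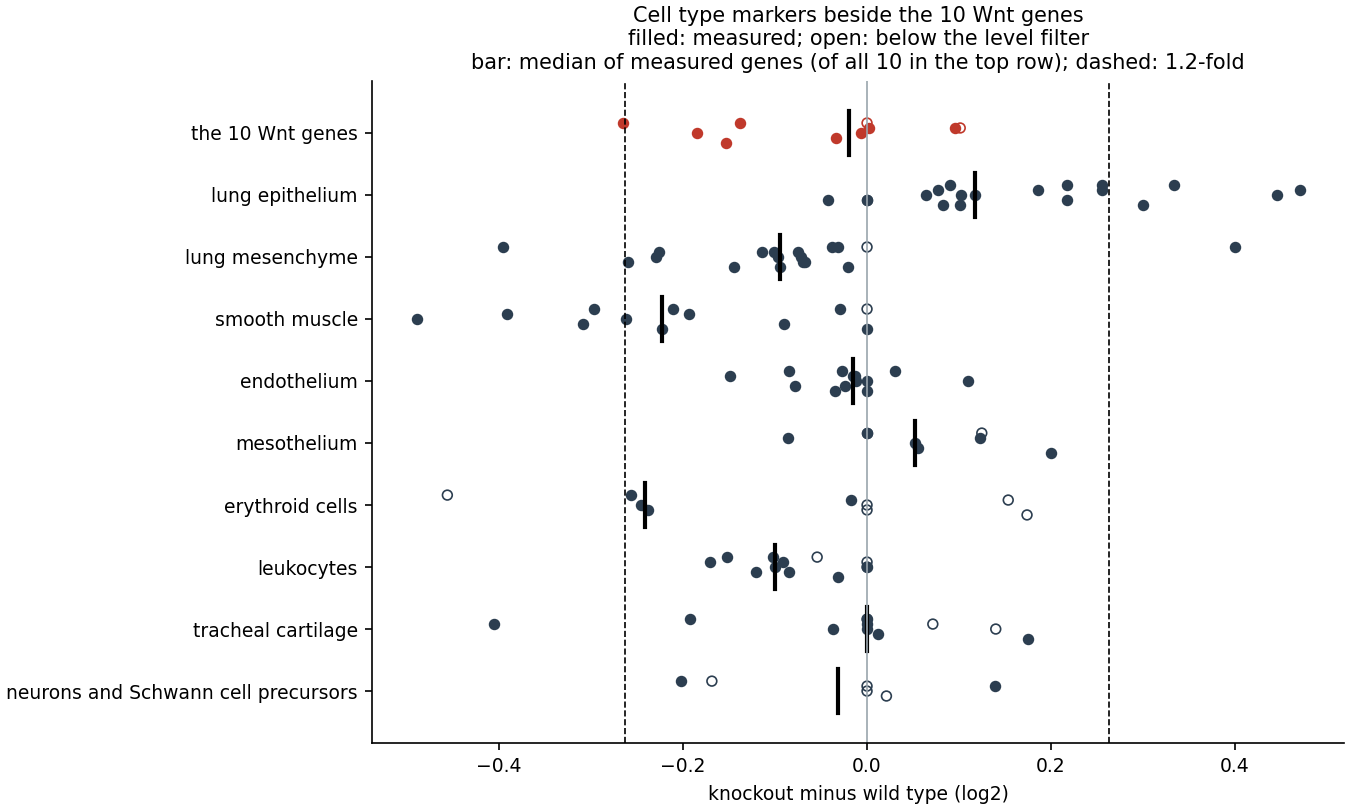
Difference, knockout minus wild type in log2 units, for each of the 10 Wnt genes (red) and for the markers of 9 cell types (dark), with points, bars and dashed lines as for the Wnt lists. Epithelial markers lie mostly right of 0 (median 0.12), and mesenchymal and smooth muscle markers mostly left of it (medians -0.09 and -0.22).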

How the data were processed

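Total RNA of embryonic lung was hybridised to 2 Affymetrix arrays, 1 per group, each a pool of 3 samples, per the labels and the design text. The deposited table held 1 value for each of 35557 probe sets. Their range led to a reading of the authors' deposited values as log2 (2.69 to 14.45 on the knockout array, 2.72 to 14.44 on the wild type array). Summary method and normalization are not given in the sources used here.

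Platform annotation gave 1 symbol to 21789 probe sets, several to 1621 and none to 12147. Each gene took its probe set with the highest mean of both arrays. A gene counted as measured when its brighter value reached its array's median, and equal values were held to the higher median. The Wnt genes, lists and limits were chosen with earlier results of these data known. Named from the lists were the 4 (Wnt) or 2 (markers) measured genes with the largest absolute differences. The other list members given were chosen after their values were seen. No test was possible. The number of arrays limits precision. The differences, fold counts and 3 scalings were run on wild type values with planted differences and no added noise. That run checks the arithmetic only, and the other steps were not tested in this way. Alternatives were 3 scalings, probe set means, a floor, other fold limits and the level filter. Python 3.11.15, numpy 2.4.6, pandas 2.3.3, statsmodels 0.14.6 and matplotlib 3.10.9 were used.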

Additional observations from a re-analysis of the deposited data

How the results depend on the processing

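The 1 gene lower by at least 1.2-fold, Sfrp1, was no longer past that limit when the arrays were set to equal medians, under quantile normalization or under loess, each of which gave a count of 0. The cause is the limit itself, since Sfrp1 differed by -0.25, -0.24 and -0.24 under these scalings, against -0.26 as deposited. With a limit of 1.1-fold 4 genes were lower, and with 1.5-fold 0 were. The count of 4 was 2 with equal medians, 2 under quantile normalization and 3 under loess, settings chosen after seeing the data, because Axin2 and Dkk3 lie close to that limit. Higher genes numbered 0 at 1.2-fold and at 1.1-fold under each of the 3 scalings. The median of the 10 genes was -0.02, and it was -0.0026, 0.0053 and -0.01 under the 3 scalings, so its sign carries no direction. Over the 8 measured genes it was -0.086, which follows from leaving out Dkk2 and Wif1. The 30 differences of single genes recomputed under the 3 scalings moved by at most 0.028, less than the median gap between probe sets of 0.039. The mean over probe sets and the floor left all 10 genes at their deposited differences, since each has 1 probe set and none lies below the floor, so these 2 settings test nothing here. The sign of Apcdd1 and of Dkk2 depended on the scaling. Sfrp1, Lgr4, Dkk3 and Axin2 were lower, and Sfrp2 and Wif1 higher, under each of the 3 scalings. Without the filter on dim genes the count of other Wnt genes that were higher was 5 in place of 1, because 4 dim genes of the antagonist list then entered. Equal medians moved the median of all genes by 0.017. No array could be left out, and no paired analysis was possible because each group has 1 array.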
